A study of Mus musculus with 2 samples.

Results

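The melanin and pigment cell genes examined here are *Dct*, *Tyr*, *Tyrp1*, *Pmel*, *Mlana*, *Oca2*, *Slc45a2*, *Gpr143*, and *Mitf*. They were listed by symbol, and all 9 were found once each among the 32285 genes of the count matrices. Their UMIs, the molecule counts of droplet-based 3′ scRNA-Seq, were examined in whole retina of male C57BL/6J mice aged 7 months. There was 1 WT library and 1 library of the ND6 mutant, whose mtDNA carries the 13997 G>A change (P25L) in the complex I subunit gene ND6 in homoplasmic form. The mutant line was derived through fusion of female embryonic stem cells and was kept by mating mutant females to WT males, so the mutation is present in every tissue and is not confined to pigmented cells. Other libraries were not analysed here. With 1 library per genotype there was no replicate check and no test between genotypes. Each comparison is between these libraries, and every interval is at 95% and covers counting error only.

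Melanin is made in melanosomes, which are organelles of melanocytes and of the retinal pigment epithelium (RPE), the pigmented layer behind the photoreceptors. TYR oxidizes tyrosine to dopaquinone, DCT (dopachrome tautomerase) and TYRP1 act on later intermediates of the eumelanin branch, and PMEL forms the fibrils on which melanin is laid down. MITF is the transcription factor that drives many of these genes in pigment cells, and in the mouse eye most RPE melanin is laid down before and soon after birth.

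Cells were barcodes with over 400 UMIs and over 200 genes, of which at most 20% of UMIs came from mtDNA-encoded genes. This left 12529 WT and 18395 ND6 cells, holding 54524401 of 77958836 and 62949610 of 80358255 UMIs. RPE cells were those with at least 1% of UMIs from *Ttr*, *Rpe65*, *Rgr*, and *Rdh5* together. They numbered 246 in WT (1.96%, 1.73% to 2.22%) and 870 in ND6 (4.73%, 4.43% to 5.05%). Their summed UMIs were close, at 1315223 and 1319366, but their median UMIs per cell were 3693 in WT and 1029.5 in ND6. A total of 59 cell barcodes occurred in both libraries, of which 0 were RPE cells. Doublets were not called. The gate is a range of a marker share and not a cluster. Between 0.8% and 1% of UMIs lay 9 WT and 29 ND6 cells, and between 1% and 1.2% lay 14 and 17.

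The gate was checked on *Lrat*, *Best1*, *Stra6*, *Slc16a8*, *Rlbp1*, and *Enpp2*, RPE genes that it did not use. Summed, they stood 112-fold higher in RPE than in other cells of WT and 69.1-fold higher in ND6. *Best1*, which encodes a chloride channel of the RPE, had 0 UMIs in RPE cells of both libraries, below the 2.28 and 2.27 CPM (UMIs scaled to a total of 1000000 in the cells summed) that 3 counts would give. Markers of other cells were present in RPE cells at unequal levels. The 7 rod genes made up 0.912% of RPE UMIs in WT and 2.26% in ND6, against 5.66% and 6.18% in other cells.

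All 9 genes lie in the nuclear genome (GRCm38 coordinates, GENCODE M21). *Dct* lies on chromosome 14 (118012790 to 118052244), *Tyr* on chromosome 7 (87424771 to 87493512), *Tyrp1* on chromosome 4 (80834123 to 80851719), and *Pmel* on chromosome 10 (128704195 to 128720238). *Mlana* is on chromosome 19 (29697824 to 29708634), *Oca2* on chromosome 7 (56239760 to 56536518), *Slc45a2* on chromosome 15 (11000721 to 11029233), *Gpr143* on chromosome X (152781921 to 152808646), and *Mitf* on chromosome 6 (97807052 to 98021349). Exons of *Pmel* overlap exons of *Cdk2* and *Dgka* on the opposite strand. How strand entered the counting is not given in the sources used here.

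The sequences before RefSeq gene starts are shown because CATGTG is the core to which MITF binds in promoters of pigment genes. RefSeq windows (GRCm38.p6) were given for 5 of the 9 genes, and the 250 bases before the start were searched on both strands for CATGTG, for TCATGTG, which contains it, and for CACGTG. The core was found in *Tyr*, *Tyrp1*, *Dct*, and *Oca2*, and TCATGTG in *Tyr*, *Tyrp1*, and *Dct*. Among all 32851 windows, 12.3% held CATGTG, 3.25% held TCATGTG, and 6.02% the CACGTG form. The 3 *Mitf* windows held none of them, and CACGTG was in none of the windows of the 5 genes. A match describes the letters of the window and is not evidence of binding. The runs are written 5′ to 3′ on the gene's strand, with the motif in capitals on either strand. For *Tyrp1* only 30 bases around the motif are shown, because the window overlaps an annotated exon of a longer transcript. These 30 bases lie after the GENCODE gene start at 80834123 and before the later RefSeq start. The regions are chr7:87493513-87493762 (minus strand), chr14:118052247-118052496 (minus strand), chr7:56239509-56239758 (plus strand), and chr4:80834155-80834184 (plus strand) in that order.
Tyr: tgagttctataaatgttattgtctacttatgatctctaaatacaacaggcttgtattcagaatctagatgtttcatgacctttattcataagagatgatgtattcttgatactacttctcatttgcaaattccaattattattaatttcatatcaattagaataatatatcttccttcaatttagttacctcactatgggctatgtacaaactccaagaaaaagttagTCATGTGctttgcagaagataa
Dct: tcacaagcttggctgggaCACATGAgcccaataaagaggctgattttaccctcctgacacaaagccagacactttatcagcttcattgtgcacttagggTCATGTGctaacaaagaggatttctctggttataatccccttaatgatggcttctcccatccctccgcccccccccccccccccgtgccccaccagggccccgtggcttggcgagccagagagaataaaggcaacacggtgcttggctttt
Oca2: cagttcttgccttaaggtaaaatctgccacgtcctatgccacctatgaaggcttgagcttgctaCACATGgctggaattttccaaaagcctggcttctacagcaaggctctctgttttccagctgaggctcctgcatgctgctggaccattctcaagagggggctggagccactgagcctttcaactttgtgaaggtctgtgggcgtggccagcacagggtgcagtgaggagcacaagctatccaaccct
Tyrp1: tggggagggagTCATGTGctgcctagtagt
In *Tyr* the TCATGTG lies 22 to 16 bases before the RefSeq start, and in *Tyrp1* 47 to 41 bases before its RefSeq start. *Dct* holds it at 151 to 145 bases and again, on the other strand, at 232 to 226 bases.

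*Dct* was the most abundant of the pigment genes. It gave 3434 UMIs in WT RPE cells (2611 CPM, 2524 to 2700) and 1097 in ND6 RPE cells (831 CPM, 783 to 882). It made up 65.0% of the UMIs of the 9 genes in WT and 59.3% in ND6. Levels of different genes are counts of transcript 3′ ends and were not divided by length.

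The other melanin enzymes were less abundant. *Tyr* gave 316 UMIs in WT RPE (240 CPM, 215 to 268) and 132 in ND6 (100.05 CPM, 83.7 to 119). *Tyrp1* gave 405 UMIs in WT (308 CPM, 279 to 339) and 143 in ND6 (108 CPM, 91.3 to 128). The WT intervals of both enzymes lay wholly above those of ND6.

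*Pmel*, the fibril protein, and *Mlana*, a melanosomal membrane protein that binds PMEL, had the widest gaps in the sums over all RPE cells. *Pmel* gave 509 UMIs in WT RPE (387 CPM, 354 to 422) and 142 in ND6 (108 CPM, 90.7 to 127). *Mlana* gave 207 UMIs in WT (157 CPM, 137 to 180) and 52 in ND6 (39.4 CPM, 29.4 to 51.7). For both genes the ND6 interval lay far below that of WT, but these intervals leave out the spread among cells.

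The melanosomal transport proteins were nearer to each other in the libraries. *Oca2*, which encodes a melanosomal anion channel that sets luminal pH, gave 212 UMIs in WT (161 CPM, 140 to 184) and 150 in ND6 (114 CPM, 96.2 to 133). *Slc45a2*, a melanosomal sugar and proton transporter, gave 47 UMIs in WT (35.7 CPM, 26.3 to 47.5) and 31 in ND6 (23.5 CPM, 16.0 to 33.4). The *Oca2* intervals did not meet, and those of *Slc45a2* overlapped.

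The receptor and the transcription factor were among the least abundant. *Gpr143*, the receptor mutated in ocular albinism, gave 75 UMIs in WT (57.0 CPM, 44.9 to 71.5) and 55 in ND6 (41.7 CPM, 31.4 to 54.3). *Mitf* gave 79 UMIs in WT (60.1 CPM, 47.6 to 74.9) and 47 in ND6 (35.6 CPM, 26.2 to 47.4). The *Gpr143* intervals overlapped, while those of *Mitf* were just apart.

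In WT RPE the order from high to low was *Dct*, *Pmel*, *Tyrp1*, *Tyr*, *Oca2*, *Mlana*, *Mitf*, *Gpr143*, and *Slc45a2*. The intervals of *Oca2* and *Mlana* overlapped, as did those of *Mitf* and *Gpr143* and those of *Gpr143* and *Slc45a2*. In ND6 RPE *Oca2* stood next after *Dct*, and its interval overlapped those of *Tyrp1*, *Pmel*, and *Tyr*. *Oca2* made up 4.01% (3.50% to 4.58%) of the pigment gene UMIs in WT RPE and 8.11% (6.91% to 9.45%) in ND6 RPE. *Pmel* made up 9.63% (8.85% to 10.5%) and 7.68% (6.51% to 8.99%), and these intervals overlapped. Those of *Oca2* lay apart, so the makeup of the group differed between the libraries as well as its level.

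**Figure D1:**
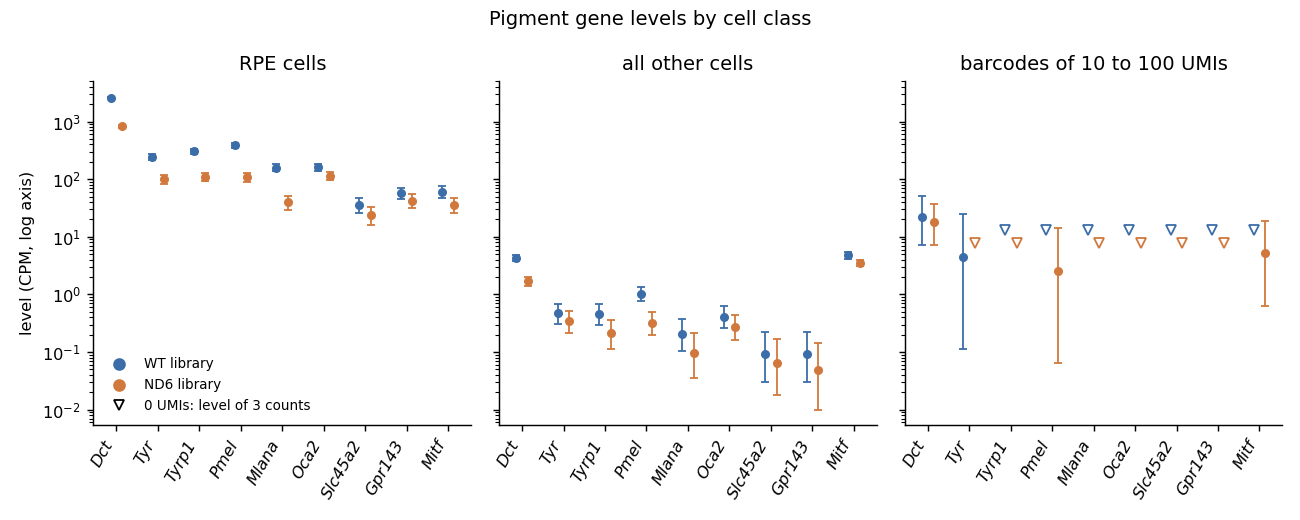
Level of each of the 9 pigment genes in CPM (log axis) in RPE cells, in all other cells, and in barcodes of 10 to 100 UMIs, for the WT and ND6 libraries. Points are 1 library each and bars are exact Poisson 95% intervals, and open triangles mark the level of 3 counts where a gene had 0 UMIs. All 9 genes are lower in ND6 than in WT in RPE cells when all UMIs are summed (*Oca2*, *Slc45a2*, and *Gpr143* not under every weighting, and *Tyr* and *Mlana* not in every band of depth), and in other cells only *Mitf* and *Dct* exceed 1.03 CPM.

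Pigment gene UMIs were concentrated in RPE cells in both libraries. Summed, the 9 genes stood at 4018 CPM in WT RPE (5284 UMIs) and at 11.8 CPM in the other WT cells (627 UMIs), a 341-fold difference (log2 8.41, 8.29 to 8.54). In ND6 they stood at 1401 CPM in RPE (1849 UMIs) and at 6.56 CPM in other cells (404 UMIs), a 214-fold difference (log2 7.74, 7.58 to 7.90). All 9 of 9 genes were at least 4-fold higher in RPE in both libraries, against 6.94% of the 14103 genes with at least 20 UMIs over RPE and other cells in each library (9.83% in WT and 7.8% in ND6). For 8 of them the log2 difference was between 8.20 and 9.74. *Mitf* stood apart at 3.66 (3.28 to 4.03) in WT and 3.35 (2.86 to 3.81) in ND6, which is 12.7-fold and 10.2-fold.

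The level was higher in cells with a larger share of the gate markers. In cells without a UMI of the 4 gate genes the pigment genes stood at 8.04 CPM in WT and 4.88 in ND6. Between 0.1% and 1%, still outside the gate, they stood at 167 and 77.0 CPM. Just inside, between 1% and 3%, the libraries were close, at 683 CPM (532 to 863; 40 cells) in WT and 574 CPM (491 to 666; 130 cells) in ND6. Between 3% and 10% the levels were 3924 and 1417 CPM, and above 10% they were 4924 and 1966 CPM. The cells between 1% and 3% also held the most rod UMIs among RPE cells, 4.07% in WT and 5.15% in ND6.

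**Figure D2:**
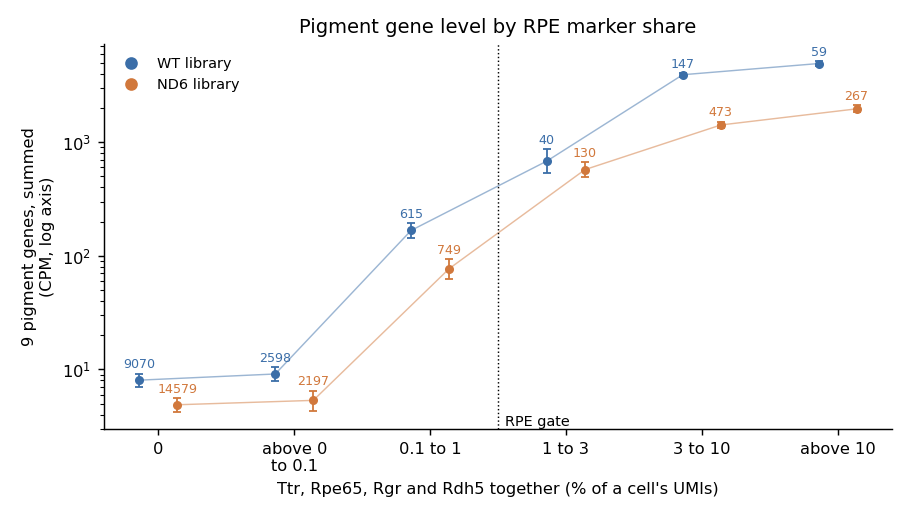
Summed level of the 9 pigment genes in CPM (log axis) by the share of a cell's UMIs from *Ttr*, *Rpe65*, *Rgr*, and *Rdh5*, for both libraries. Bars are exact Poisson 95% intervals, numbers are cells, and the dotted line is the RPE gate at 1%. The libraries overlap between 1% and 3% and lie furthest apart between 3% and 10%, at 3924 CPM in WT and 1417 CPM in ND6.

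Outside the RPE the genes other than *Mitf* were sparse. Barcodes of 10 to 100 UMIs, 7324 in WT and 8621 in ND6, were taken as RNA free in the suspension, which was not tested. In them the 9 genes gave 6 UMIs in WT (26.5 CPM) and 10 in ND6 (25.7 CPM), mostly of *Dct* (5 and 7). *Dct* stood at 22.1 and 18.0 CPM in these barcodes, against 4.28 CPM in WT and 1.69 CPM in ND6 other cells. The source of the *Dct* UMIs in other cells was not tested. Without *Dct* the free RNA held 1 and 3 UMIs of the other 8 genes, too few for a comparison with other cells. *Tyr*, *Tyrp1*, *Pmel*, *Mlana*, *Oca2*, *Slc45a2*, and *Gpr143* stood between 0.0487 and 1.03 CPM there, in 3 to 31 cells each. Other cells with at least 5 pigment gene UMIs numbered 3 in WT and 3 in ND6. They held 38512 to 303625 UMIs each in WT and 10765 to 37334 in ND6, and the 3 WT cells held 144 of the 627 UMIs.

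*Mitf* was the exception outside the RPE. It gave 252 UMIs in other WT cells (4.74 CPM, 4.17 to 5.36) and 216 in other ND6 cells (3.50 CPM, 3.05 to 4.005), or 40.2% and 53.5% of all pigment gene UMIs there. Of these, 225 WT UMIs (4.67 CPM, 4.08 to 5.32) and 184 ND6 UMIs (3.34 CPM, 2.88 to 3.86) lay in the rod-rich cells left after the other classes were set. Cones held 12 UMIs in each library. In microglia *Mitf* gave 11 UMIs in WT (24.4 CPM, 12.2 to 43.7) and 2 in ND6 (11.99 CPM, 1.45 to 43.3). In amacrine cells it gave 1 UMI in WT (5.84 CPM, 0.148 to 32.5; 25 cells) and 14 in ND6 (29.8 CPM, 16.3 to 49.9; 140 cells). In free RNA *Mitf* gave 0 UMIs in WT, which allows up to 13.3 CPM, and 2 in ND6, so whether its level in other cells exceeds free RNA was not detectable at this depth.

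The comparison of ND6 with WT asked how the mtDNA mutation library differed in the RPE. In RPE cells the 9 genes together were 2.87-fold lower in ND6 than in WT (log2 −1.52, −1.60 to −1.44). Without *Dct* the other 8 were 2.47-fold lower (log2 −1.30, −1.43 to −1.18). All 9 of 9 were lower in ND6, against 43% of the 8655 genes with at least 20 UMIs over both RPE sums, but *Oca2* and *Slc45a2* turned higher after thinning each cell to 400 UMIs (0.58 and 1.4996, with intervals that held 0) and *Gpr143* with cells weighted equally (0.070). The median log2 difference of all genes tested was 0.11. The median of the 9 was −1.26. At least 2-fold lower were 5 of 9, against 2.72% of all genes tested, and 0 of 9 were at least 2-fold higher, against 9.66%.

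The 5 genes were the enzymes and the structural proteins. *Mlana* was 3.99-fold lower in ND6 (log2 −1.998, −2.47 to −1.55), *Pmel* 3.60-fold (−1.85, −2.13 to −1.58), and *Dct* 3.14-fold (−1.65, −1.75 to −1.55). *Tyrp1* was 2.84-fold lower (−1.51, −1.79 to −1.23) and *Tyr* 2.40-fold (−1.26, −1.57 to −0.97). Within bands of depth, *Tyr* stood at 0.40 (−1.57 to 3.51) in cells of over 400 and under 1000 UMIs, and *Mlana* at 1.23 in cells of 1000 to under 2000 UMIs, with intervals that held 0. *Mitf* was 1.69-fold lower (−0.75, −1.31 to −0.21) and *Oca2* 1.42-fold (−0.50, −0.82 to −0.20). *Slc45a2* stood at −0.60 (−1.31 to 0.08) and *Gpr143* at −0.45 (−0.98 to 0.07), and both intervals held 0.

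**Figure D3:**
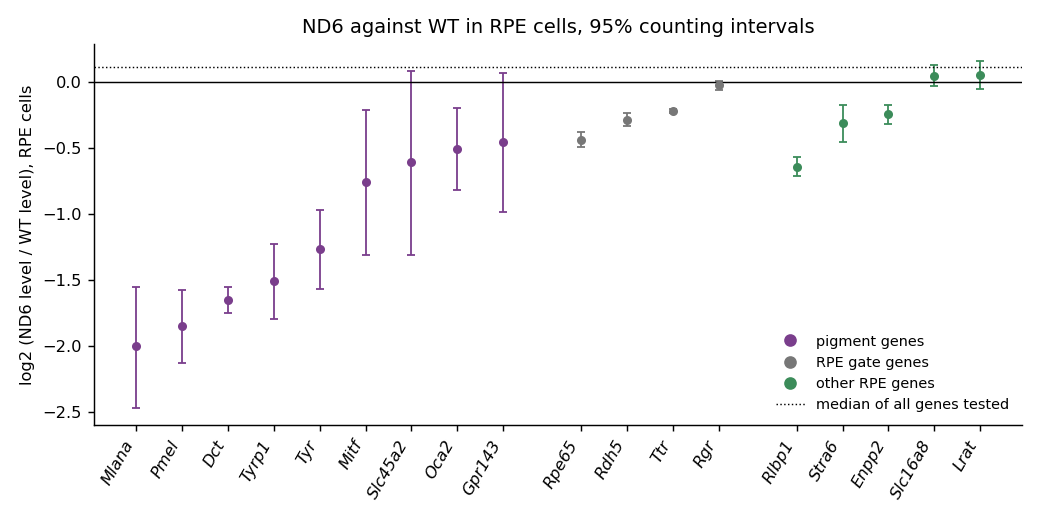
Log2 of the ND6 level over the WT level in RPE cells for the 9 pigment genes, the 4 gate genes, and the 5 other RPE genes with UMIs, each group in rising order. Bars are exact 95% counting intervals between 1 library of each genotype, and the dotted line is the median of all 8655 genes tested (0.11). *Mlana*, *Pmel*, *Dct*, *Tyrp1*, and *Tyr* lie below −1, and no gate or other RPE gene does.

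Ranked from the lowest value among the 1811 genes with at least 200 UMIs over both RPE sums, *Mlana* was 3rd, *Pmel* 4th, *Dct* 5th, *Tyrp1* 7th, *Tyr* 12th, and *Oca2* 161st. *Trpm1*, a cation channel gene that MITF drives in melanocytes and that bipolar cells also use, was 6th (241 UMIs in WT and 78 in ND6, log2 −1.63). The 2 genes ahead of *Mlana* were *Cox8b* (log2 −2.17) and *AY036118* (log2 −2.06). The gate genes, and those genes of the RPE check that had UMIs, lay closer to 0 than *Mitf* and the 5 pigment genes that were at least 2-fold lower. *Lrat*, the enzyme that esterifies retinol, stood at 0.05 (−0.05 to 0.16), *Slc16a8*, a lactate transporter, at 0.05 (−0.03 to 0.13), and *Rgr* at −0.02. *Rpe65*, the retinoid isomerase, stood at −0.43, and *Rlbp1* lay lowest at −0.64, below *Slc45a2*, *Oca2*, and *Gpr143*. Among the 865 other genes at least 4-fold higher in RPE in both libraries, the median was −0.38, and 7.75% were at least 2-fold lower in ND6.

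**Figure D4:**
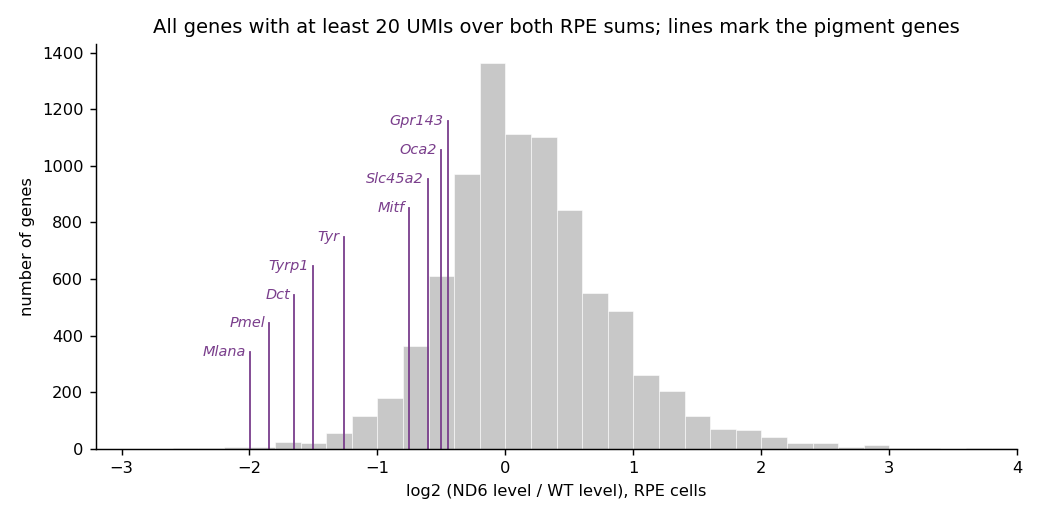
Histogram of the log2 of the ND6 level over the WT level in RPE cells for the 8655 genes with at least 20 UMIs over both sums (vertical axis, number of genes), with lines at the 9 pigment genes. The lines have arbitrary heights for legibility, and the few genes beyond the ends of the axis are not drawn. All 9 lie below 0, from −1.998 for *Mlana* to −0.45 for *Gpr143*, though *Gpr143*, *Oca2*, and *Slc45a2* do not under every weighting of cells, nor *Tyr* and *Mlana* in every band of depth.

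Depth, RNA of some other cells, and *Malat1* also differed between the RPE cells of the libraries. Among RPE cells 7 of 7 rod genes, 6 of 6 cone genes, and 4 of 5 bipolar genes tested were higher in ND6, with medians of 1.23, 1.29, and 2.11, the bipolar exception being *Trpm1*. Over all genes tested 57% were higher. Of the Müller genes tested 1 was higher, at 3.32, and 3 lower (median −0.32), and of the amacrine genes 1 was higher and 1 lower. The lower Müller genes included *Rlbp1* (−0.64), also an RPE check gene, and *Sox9* (−0.45), listed below among the factors that act with MITF. The direction of Müller RNA in RPE cells is therefore not given by these counts. *Malat1*, a nuclear RNA, stood at 3890 CPM in WT and 8613 CPM in ND6 RPE cells, but at 32164 and 27326 CPM in other cells. In RPE cells of over 400 and under 1000 UMIs the 9 genes stood at 2063 CPM in WT (48 UMIs, 37 cells) and 1544 CPM in ND6 (421 UMIs, 424 cells), a log2 difference of −0.42 (−0.85 to 0.04) whose interval held 0. It was −0.92 (−1.21 to −0.63) in cells of 1000 to under 2000 UMIs and −1.26 (−1.44 to −1.08) in cells of 2000 to under 4000 UMIs. It was −1.48 (−1.65 to −1.31) in cells of 4000 to under 8000 UMIs and −1.56 (−1.79 to −1.32) in the 57 WT and 9 ND6 cells of 8000 or more. The WT level thus went from 2063 CPM in the shallowest to 4282 CPM in the deepest cells, while the ND6 level stayed between 1233 and 1544 CPM.

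In the band of 2000 to under 4000 UMIs, with 63 WT and 115 ND6 cells, the 6 other RPE genes stood at 9019 and 9026 CPM (log2 0.00, −0.09 to 0.09) and the rod genes differed by 0.07. The pigment genes were 2.40-fold lower in ND6 there. In cells of over 400 and under 1000 UMIs the other RPE genes were higher in ND6 (log2 0.47, 0.23 to 0.72) and the rod genes lower (−0.49, −0.62 to −0.37). In cells of 1000 to under 2000 UMIs the other RPE genes stood at −0.08 (−0.22 to 0.07) and the rod genes at 0.28 (0.19 to 0.37). In the 2 deepest bands the other RPE genes were lower in ND6 as well, by log2 −0.61 and −1.13, and the rod genes were higher by 1.45 and 2.67. Among RPE cells with under 1% of UMIs from rod genes the pigment genes stood at −1.35 (−1.44 to −1.25). Scaled to the UMIs of the 6 other RPE genes in place of all UMIs, they stood at −1.25. The part of depth, of other cells' RNA, and of nuclear RNA in the whole difference was not tested.

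**Figure D5:**
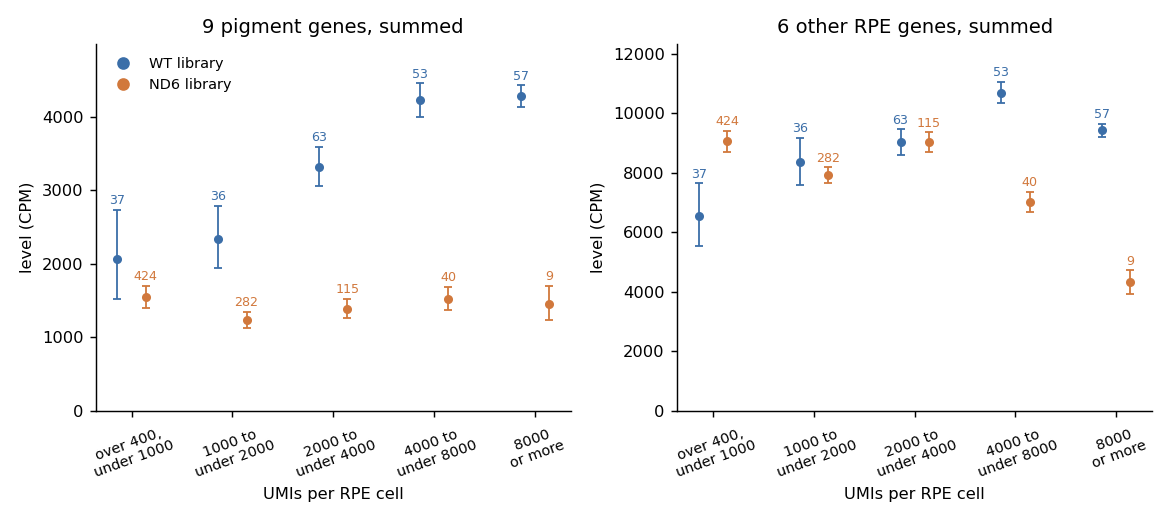
Summed level in CPM of the 9 pigment genes (left) and of the 6 other RPE genes (right) in RPE cells, by the cell's total UMIs, for both libraries. Bars are exact Poisson 95% intervals and numbers are cells. The pigment genes reach 4282 CPM in the deepest WT cells and stay at or below 1544 CPM in ND6. From the shallowest to the deepest band, the other RPE genes differ by log2 0.47, −0.08, 0.00, −0.61, and −1.13 in ND6 over WT.

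The share of RPE cells with a UMI was compared after each cell was thinned to 400 UMIs. *Dct* was then found in 41.1% of WT (34.8% to 47.5%) and 23.3% of ND6 RPE cells (20.6% to 26.3%), and unthinned in 78.5% and 48.7%. *Pmel* was found in 8.13% and 2.53% (unthinned 24.8% and 5.40%) and *Tyrp1* in 9.35% and 4.02% (unthinned 41.5% and 11.03%). The thinned intervals of *Dct*, *Pmel*, and *Tyrp1* did not meet. *Tyr* (6.50% of WT and 3.91% of ND6 cells) and *Mlana* (4.07% and 2.07%) were also lower after thinning, but their intervals overlapped. The same held for *Gpr143* (2.03% and 1.49%) and *Mitf* (2.85% and 1.38%). *Oca2* and *Slc45a2* went the other way. *Slc45a2* was found in 0.407% (0.0103% to 2.24%) of WT and 1.15% (0.553% to 2.10%) of ND6 cells, and *Oca2* in 4.07% (1.97% to 7.35%) of WT and 5.98% (4.50% to 7.76%) of ND6 cells, and the intervals of each gene overlapped. Cells with a UMI of none of the 9 genes made up 45.5% of WT and 63.7% of ND6 RPE cells after thinning. In other cells, with median UMIs of 1861 and 1430, *Dct* was found unthinned in 1.12% and 0.474%. After thinning it was found in 0.187% (0.119% to 0.281%) of WT and 0.0799% (0.0437% to 0.134%) of ND6 other cells, and these intervals overlapped.

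The pigment genes were unevenly spread among RPE cells. In WT, 9 of 246 RPE cells held at least 50% of the *Pmel* UMIs, and in ND6 6 of 870 did. *Dct* needed 24 and 72 cells, *Ttr* 36 and 146, and all UMIs together 48 and 173. Up to 8 of the 9 genes were detected in 1 cell, in 16 WT and 1 ND6 cells. Of the 6 more abundant pigment genes in WT, *Pmel* was thus the most concentrated and *Tyr*, at 28 cells, the least.

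RPE cells of at least 2000 UMIs were then divided by *Pmel*, a split chosen after its values were seen and given as a description. At least 3 *Pmel* UMIs were held by 35 of 173 WT cells (20.2%, 14.5% to 27.0%) and by 8 of 164 ND6 cells (4.88%, 2.13% to 9.39%). The median UMIs of these cells were 8549 and 4953, against 4868 and 2843 in the 118 WT and 143 ND6 cells with 0 *Pmel* UMIs, so they were also deeper. In the WT *Pmel*-rich cells *Dct* stood at 5150 CPM, against 1304 CPM in cells without *Pmel*. *Tyrp1* stood at 642 against 115 CPM, *Mlana* at 414 against 60.1, and *Trpm1* at 431 against 60.1. *Slc45a2* stood at 79.5 against 20.05 CPM. *Mlph*, a melanosome transport gene, gave 10 UMIs in the WT *Pmel*-rich cells and 0 in those without. In ND6 it gave 0 and 3 UMIs. Whether melanocyte RNA had a part in this split was not tested. In ND6 the *Pmel*-rich cells likewise had more *Dct* (1993 against 689 CPM) and *Tyrp1* (512 against 64.8 CPM).

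*Oca2* was also higher in *Pmel*-rich cells, at 236 against 128 CPM in WT (log2 0.88, 0.44 to 1.32) and 219 against 87.1 CPM in ND6 (1.33, 0.28 to 2.27). *Gpr143* stood at 79.5 against 46.8 CPM in WT, with an interval that held 0, and had 0 UMIs in the 8 ND6 cells. *Tyr* was higher in WT, at 315 against 221 CPM (0.51, 0.15 to 0.87), and stood at 110 and 94.5 CPM in ND6.

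Other genes differed less or were lower. *Mitf* stood at 56.8 CPM in WT *Pmel*-rich cells and 65.5 CPM in those without, and at 36.6 and 37.0 CPM in ND6. *Lrat* was lower in *Pmel*-rich cells, at 633 against 1310 CPM in WT and 658 against 1078 CPM in ND6. *Sox10* was nearly the same, at 59.6 and 54.8 CPM in WT.

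The difference between the libraries was present on either side of the split. In cells of at least 2000 UMIs without *Pmel*, the other 8 pigment genes stood at 1961 CPM in WT and 1056 CPM in ND6 (log2 −0.89, −1.04 to −0.75). There *Dct* stood at −0.92, *Tyr* at −1.22, and *Tyrp1* at −0.83. In the 35 and 8 *Pmel*-rich cells the 8 genes stood at 6972 and 3109 CPM (log2 −1.17). Over all RPE cells of at least 2000 UMIs the value was −1.51, so it was smaller on each side of the split than over both sides together.

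Outside the RPE the pigment genes were lower in the ND6 library as well. In other cells the 9 genes stood at log2 −0.85 (−1.03 to −0.66) and *Dct* at −1.34 (−1.69 to −1.004). Few cells weighed on these sums. The 3 WT other cells with at least 5 pigment gene UMIs held 144 of the 627 UMIs. In ND6 the 3 such cells held 24 of 404, and the difference without these cells was not computed. Of the 6 with at least 20 UMIs there, 6 were lower, against 41.9% of genes tested, and 3 (*Dct*, *Pmel*, and *Tyrp1*) were at least 2-fold lower, against 2.76%. At any size 0 were higher, against 58.1%, and 0 were at least 2-fold higher, against 9.62%. In free RNA the libraries differed by −0.05 (−1.65 to 1.70), an interval too wide to show a difference of the size seen in RPE. Over all cells together the genes stood at 108 CPM in WT and 35.8 CPM in ND6. The gate genes were also lower in ND6 over all cells, at 2199 CPM in WT and 1685 CPM in ND6. RPE cells held 1315223 of 54524401 UMIs in WT and 1319366 of 62949610 in ND6. Barcodes that passed the RPE gate but exceeded the limit on mtDNA-encoded UMIs showed 2145 CPM in WT (75 barcodes) and 724 CPM in ND6 (57 barcodes).

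The other genes of the melanosome were set beside the pigment genes. The list holds 35 genes of melanosome ions and membrane, cargo sorting, and transport, of which 27 had at least 20 UMIs over both RPE sums. In ND6 19 were lower and 8 higher than in WT, with a median of −0.17, against 43% lower and a median of 0.11 over all genes tested. At least 2-fold lower was 1 of 27, against 2.72%, and 0 were at least 2-fold higher, against 9.66%. The 1 gene was *Rab38*, a small GTPase that carries enzymes to melanosomes, with 18 UMIs in WT and 2 in ND6. In RPE over other cells 10 of 33 tested were at least 4-fold higher in WT and 9 of 34 in ND6, against 9.83% and 7.8% of all genes tested.

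Within that list the membrane proteins and the transport GTPase lay lowest among genes of over 100 UMIs. *Rab27a*, which links melanosomes to myosin motors, gave 201 UMIs in WT and 102 in ND6 (log2 −0.98). *Gpnmb*, a relative of *Pmel*, gave 373 and 205 (−0.87), and *Slc24a5*, a cation exchanger of pigment cells, gave 461 and 313 (−0.56). *Cd63*, which helps sort PMEL, gave 1916 and 1457 (−0.40). Of the 16 cargo sorting genes tested, 10 were lower and 6 higher, with a median of −0.05, against 43% lower and a median of 0.11 over all genes tested. Examples are *Bloc1s1* (271 and 256 UMIs, −0.09), *Ap3d1* (60 and 64, 0.09), and *Snapin* (95 and 101, 0.08), whose intervals held 0.

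The MITF family and the factors that act with it were examined as a list of 7, of which 5 had at least 20 UMIs. *Otx2*, which acts with MITF in RPE, gave 545 UMIs in WT and 410 in ND6 (log2 −0.42, −0.60 to −0.23). *Sox9* gave 186 and 137 (−0.45, −0.77 to −0.12), and *Pax6* gave 20 and 40 (1.00, 0.19 to 1.85). *Tfe3*, a relative of *Mitf*, gave 21 and 13 (−0.70, −1.82 to 0.37), and *Tfec* gave 0 in both. With *Trpm1*, which the list also holds, 4 of the 5 were lower in ND6 and 1 was higher, against 43% lower and 57% higher among all genes tested. *Trpm1* was at least 2-fold lower, as were 2.72% of all genes.

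Markers of other pigmented or neighbouring cells were sought in the RPE cells. Of 7 genes that mark melanocytes rather than RPE, *Mc1r*, *Pax3*, and *Erbb3* had 0 UMIs in RPE cells of both libraries, and *Ednrb* had 1 and 2. *Sox10* was present, with 74 UMIs in WT (56.3 CPM, in 21.1% of cells) and 50 in ND6 (37.9 CPM, in 5.06%), as was *Mia*, with 25 and 23, and *Kit*, with 14 and 8. In RPE over other cells *Sox10* stood at log2 8.74 in WT and 10.19 in ND6, *Mia* at 7.98 and 7.75, and *Kit* at 6.56 and 3.96. *Ednrb* went the other way, at −0.68 and −0.43. The *Sox10* shares of cells are unthinned, and median UMIs per RPE cell were 3693 in WT and 1029.5 in ND6. The summed melanocyte list stood at 86.7 CPM in WT and 62.9 CPM in ND6. Fibroblast genes gave 1 UMI in each library, and endothelial genes gave 11 and 30. Whether melanocyte RNA had a part in the pigment gene levels was not tested.

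The 10 genes whose levels were most like the mean profile of the pigment genes were sought over 7 cell classes in both libraries, 14 points in all, among the 1562 other genes with at least 100 UMIs in RPE of each library. They were *Gsta1*, *Nog*, *Acta2*, *Thbs4*, *Krt8*, *Slco1a4*, *Gsta2*, *Cldn1*, *Slc7a10*, and *Sult1c1*, with Pearson's r on log2(CPM + 1) from 0.988 to 0.996. The points share libraries and depth, and r is a description of which genes are high in RPE and near 0 elsewhere. The closest, *Gsta1*, gave 209 UMIs in WT RPE and 128 in ND6 RPE (log2 −0.71). In ND6 over WT these genes lay between −0.92 (*Thbs4*) and −0.17 (*Slc7a10*). The RPE levels of both libraries entered the choice of these genes, so their direction is not independent of it. At least 2-fold lower were 0 of 10, against 2.72% of all genes tested. Among the 865 other genes at least 4-fold higher in RPE in both libraries the share was 7.75%.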

How the data were processed

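Per the study's methods, Cell Ranger 3.0.2 mapped reads onto mm10. The matrices deposited by the authors hold unnormalized UMI counts for every gene and every barcode, empty droplets included. From these counts, cells were kept by the limits of the study's methods, and UMIs were summed per library and cell class. Sums were scaled to a total of 1000000 (CPM). Sums have exact Poisson, shares Clopper-Pearson, and log2 ratios exact conditional intervals at 95% (Python 3.11.15, scipy 1.17.1), which cover counting error only. A count of 0 was given a floor of 3 counts per library and class. Shares of cells were also computed after thinning each cell to 400 UMIs. Other classes were set by marker shares: microglia, cone, bipolar, amacrine, and Müller cells, with the rest called rod-rich. A call between libraries was at least 2-fold and between RPE and other cells at least 4-fold. Genes tested had at least 20 UMIs over both sums added together, a sum of 0 being taken as 0.5. Genes named were the 9 members, the listed genes, the 10 of most similar profile, and the genes ranked beside the members, which were added after their values were seen. The members and lists were chosen with earlier results of these data known. Gene positions were taken from GENCODE M21, in which 32158 of 32285 gene IDs were found. In simulated RPE sums with 200 changed genes among 6160, the intervals held the true ratio for 97.0% of changed genes. The simulated sums were drawn as Poisson counts, which the intervals assume. This coverage therefore does not show how the intervals hold where UMIs are unevenly spread among cells. Alternatives were the mtDNA limit, depth, gate, scaling, weighting, thinning, the filter, and the bounds of free RNA.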

Additional observations from a re-analysis of the deposited data

Results flagged for a closer look

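*Mitf* in amacrine cells went the opposite way to *Mitf* in RPE cells. It stood at log2 2.35 in ND6 over WT in amacrine cells and at −0.75 in RPE cells. The amacrine value came from 1 UMI in WT (5.84 CPM, 0.148 to 32.5) and 14 UMIs in ND6 (29.8 CPM, 16.3 to 49.9), and these intervals overlapped. The summed 9 genes in amacrine cells, 3 UMIs in WT and 14 in ND6, followed at 0.77 (−1.08 to 3.21), against −1.52 in RPE cells. With 1 library per genotype the difference between the cell classes was not tested. The WT amacrine class held 25 cells and the ND6 class 140.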

How the results depend on the processing

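The 9 genes summed stayed higher in RPE than in other cells, and lower in ND6 RPE than in WT RPE, under every alternative run, and 9 of 9 stayed at least 4-fold higher in RPE. ND6 over WT in RPE (log2 −1.52) moved to −1.66 with the gate at 0.5% of UMIs, −1.36 with the gate at 5%, −1.29 with cells weighted equally, −1.24 with each cell thinned to 400 UMIs, −1.63 with median-of-ratios size factors, and −1.64 without the highest 10% of cells by UMIs. Among alternatives chosen after seeing the data, it was −0.42 (−0.85 to 0.04), −0.92, and −1.26 in RPE cells of over 400 and under 1000, 1000 to under 2000, and 2000 to under 4000 UMIs, −1.25 scaled to the UMIs of the 6 other RPE genes, −1.35 with under 1% of UMIs from rod genes, and −1.39 without the 10 RPE cells with the most pigment gene UMIs. RPE over other cells moved to 7.55 in ND6 without the mtDNA limit, to 8.25 in WT and 7.22 in ND6 with the gate at 5%, and in WT to 8.27 after thinning and 8.75 without the highest 10% of cells. ND6 over WT in other cells was −0.33 with the gate at 5%. After thinning, *Slc45a2* and *Gpr143* in WT, and *Mlana*, *Oca2*, *Slc45a2*, and *Gpr143* in ND6, had 0 UMIs in other cells. They gave no ratio of RPE over other cells. In the 9 of 9 they were counted by an RPE level at least 4-fold the level of 3 counts in other cells. For *Slc45a2* in WT, 1 thinned RPE cell held a UMI.

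Single genes turned the other way as follows, with intervals that held 0 wherever one was computed. *Gpr143* stood at 0.070 with cells weighted equally and at 0.19 in cells of 4000 to under 8000 UMIs. *Oca2* stood at 0.58 after thinning, 0.66 in cells of over 400 and under 1000 UMIs, and 0.10 in cells of 1000 to under 2000 UMIs. *Slc45a2* stood at 1.4996 after thinning and 0.89 in cells of 4000 to under 8000 UMIs, *Tyr* at 0.40 in cells of over 400 and under 1000 UMIs, and *Mlana* at 1.23 in cells of 1000 to under 2000 UMIs. The cause was not tested. In all, 150 of 159 values of single genes in ND6 over WT were below 0. Barcodes of 10 to 50 UMIs, and a few single genes with 0 UMIs in 1 of the sums, gave no ratio. No paired analysis was possible because each genotype has 1 library.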
